A study of Mus musculus with 6 samples.

Results

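The ligands by which a dendritic cell (DC) stimulates or restrains T cells through the B7 and tumor necrosis factor (TNF) families were followed in tumor DC, together with the receptor gene Cd40. The 10 genes were chosen by name, with earlier results of these data known, from a table of 23224 gene symbols. They were Cd274, Pdcd1lg2, Cd80, Cd86, Cd40, Icosl, Cd276, Tnfsf4, Tnfsf9 and Tnfsf10. All 10 were in the table and all 10 passed the filter on low counts, which left 13223 genes. The cells were sorted live by flow cytometry from dissociated tumors 7 days after MC57-SIY cells, a mouse fibrosarcoma line carrying the model CD8+ T cell antigen SIY, were placed under the skin of C57BL/6 mice, and their RNA was sequenced in bulk. The 3 groups of 2 libraries were ISG+ DC from Rag2-/- hosts, ISG+ DC from WT hosts and CD103+ DC1 from Rag2-/- hosts. No CD103+ DC1 from WT hosts were analysed here. Rag2-/- mice cannot rearrange antigen receptors and lack mature T and B cells, so these DC came from tumors without the cells that carry most receptors of these ligands. ISG usually stands for interferon-stimulated gene, and the sources used here do not give the gate by which ISG+ DC were sorted. Tumors were pooled, the 2 libraries of a group came from independent experiments per the labels, and the sources used here state neither the number nor the age of the mice.

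PD-L1 (Cd274) and PD-L2 (Pdcd1lg2) bind PD-1 on T cells and dampen their activation. CD80 and CD86 bind the activating receptor CD28 and the inhibitory receptor CTLA-4, and PD-L1 and CD80 can also bind each other on the surface of one DC. ICOS ligand (Icosl) and the TNF-family ligands OX40L (Tnfsf4) and 4-1BBL (Tnfsf9) sustain T cells that are already activated, TRAIL (Tnfsf10) triggers death receptors, and CD40 receives the signal of CD40 ligand on helper T cells. PD-L1 and TRAIL are known in many cell types as genes that interferons induce.

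Cd274 and Pdcd1lg2 are direct neighbours on mouse chromosome 19, with 0 annotated genes between them in RefSeq's GRCm38.p6 annotation. The 250 bases before the transcription start that the RefSeq table (GRCm38.p6) gives are printed for both, because these genes differed together between hosts, and for Tnfsf10, which differed between DC populations. The windows are chr19:29367188-29367437 for Cd274, chr19:29410669-29410918 for Pdcd1lg2 and chr3:27316827-27317076 for Tnfsf10, all on the plus strand, and the counts themselves were made on the build mm9. Capitals mark GAAAC or its reverse complement GTTTC, a unit found within many interferon-stimulated response elements.
Cd274: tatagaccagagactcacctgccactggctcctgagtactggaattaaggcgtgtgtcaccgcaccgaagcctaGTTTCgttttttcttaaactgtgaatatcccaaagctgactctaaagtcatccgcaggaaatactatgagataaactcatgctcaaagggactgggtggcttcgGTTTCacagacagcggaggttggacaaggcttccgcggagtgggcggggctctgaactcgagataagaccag
Pdcd1lg2: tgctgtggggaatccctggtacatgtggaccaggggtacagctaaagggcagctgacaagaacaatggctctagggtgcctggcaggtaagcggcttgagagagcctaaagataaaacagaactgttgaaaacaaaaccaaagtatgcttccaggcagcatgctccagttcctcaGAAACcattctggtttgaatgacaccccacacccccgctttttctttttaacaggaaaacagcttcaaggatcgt
Tnfsf10: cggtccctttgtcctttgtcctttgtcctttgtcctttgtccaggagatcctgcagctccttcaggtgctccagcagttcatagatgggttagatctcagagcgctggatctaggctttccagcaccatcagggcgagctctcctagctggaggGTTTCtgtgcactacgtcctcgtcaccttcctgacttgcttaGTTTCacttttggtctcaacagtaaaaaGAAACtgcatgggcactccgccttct
The unit occurred 2 times before Cd274, 1 time before Pdcd1lg2, 3 times before Tnfsf10, and 0 times before each of Cd80, Icosl and Cd276. Of 32851 windows of the same length, 39.7% held it. The full interferon-stimulated response element core (GAAA, 2 bases of any kind, GAAA), the gamma-activated site TTCNNNGAA and an NF-kB element (GGGA, any base, TT, any base, CC), searched on both strands, occurred 0 times in the windows of the 6 members that the table holds (Cd274, Pdcd1lg2, Cd80, Icosl, Cd276 and Tnfsf10), against 2.98%, 7.02% and 0.98% of all windows. The GAAAC search was added after those 3 had found no match.

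Library totals lay between 6023510 and 15368616 estimated counts, and CD103+ DC1 replicate 3 was the shallowest. Its Spearman correlation with the other libraries over tested genes ran from 0.768 to 0.882, the highest being that with its own replicate, while the other pairs ran from 0.818 to 0.934. Levels are in CPM, each gene's share of its library's TMM-scaled total. Rag2 had 40 and 2 estimated counts in Rag2-/- ISG+ DC, 0 and 0 counts in WT ISG+ DC, and 39 and 11 in Rag2-/- CD103+ DC1. Reads of Rag2 were therefore seen in the libraries labelled Rag2-/- and in neither library labelled WT. The sources used here do not state the deleted segment of Rag2, so this does not check the host labels, and the host names are those of the labels throughout. The DC1 markers Xcr1, Clec9a and Itgae (CD103) averaged 273, 354 and 373 CPM in CD103+ DC1. Itgam (CD11b), a marker of the other conventional DC lineage and of monocytes, averaged 1263 CPM in Rag2-/- ISG+ DC, 1379 CPM in WT ISG+ DC and 79.2 CPM in CD103+ DC1.

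In ISG+ DC, both PD-1 ligands were lower in Rag2-/- hosts than in WT hosts, and none of the other 8 members passed the test. In edgeR's quasi-likelihood test, with p-values adjusted over all genes by the Benjamini-Hochberg method (threshold 0.05), 2 of the 10 members fell and 0 rose, where 0.552% of all genes passed, 0.287% lower and 0.265% higher. At an unadjusted p under 0.05 the count was again 2, both lower, against 9.88% of all genes. DESeq2 and limma-voom each called 2 lower and 0 higher, where they called 3.48% and 2.45% of all genes. Between populations within Rag2-/- hosts, 4-1BBL and TRAIL transcripts were higher in ISG+ DC than in CD103+ DC1: 2 of 10 members rose and 0 fell, where 3.69% of all genes passed, 2.83% higher and 0.862% lower. There 3 members, all higher, had an unadjusted p under 0.05, against 14.9% of all genes. DESeq2 and limma-voom each called 3 higher and 0 lower, the added gene being Icosl, where they called 6.75% and 4.58% of all genes. WT ISG+ DC differ from Rag2-/- CD103+ DC1 in both host and population, which cannot be told apart. In that pair 4 of 10 members (Cd274, Pdcd1lg2, Tnfsf9 and Tnfsf10) were higher and 0 lower, where 9.14% of all genes passed, 5.52% higher and 3.62% lower. At an unadjusted p under 0.05 there were 5, against 21.9% of all genes. DESeq2 called 4 higher and 0 lower, where it called 13.2% of all genes, and limma-voom 2 higher (Cd274 and Pdcd1lg2) and 0 lower, where it called 8.97%. Any 2 of these comparisons share a group of libraries, so they are not independent of each other.

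**Figure D1:**
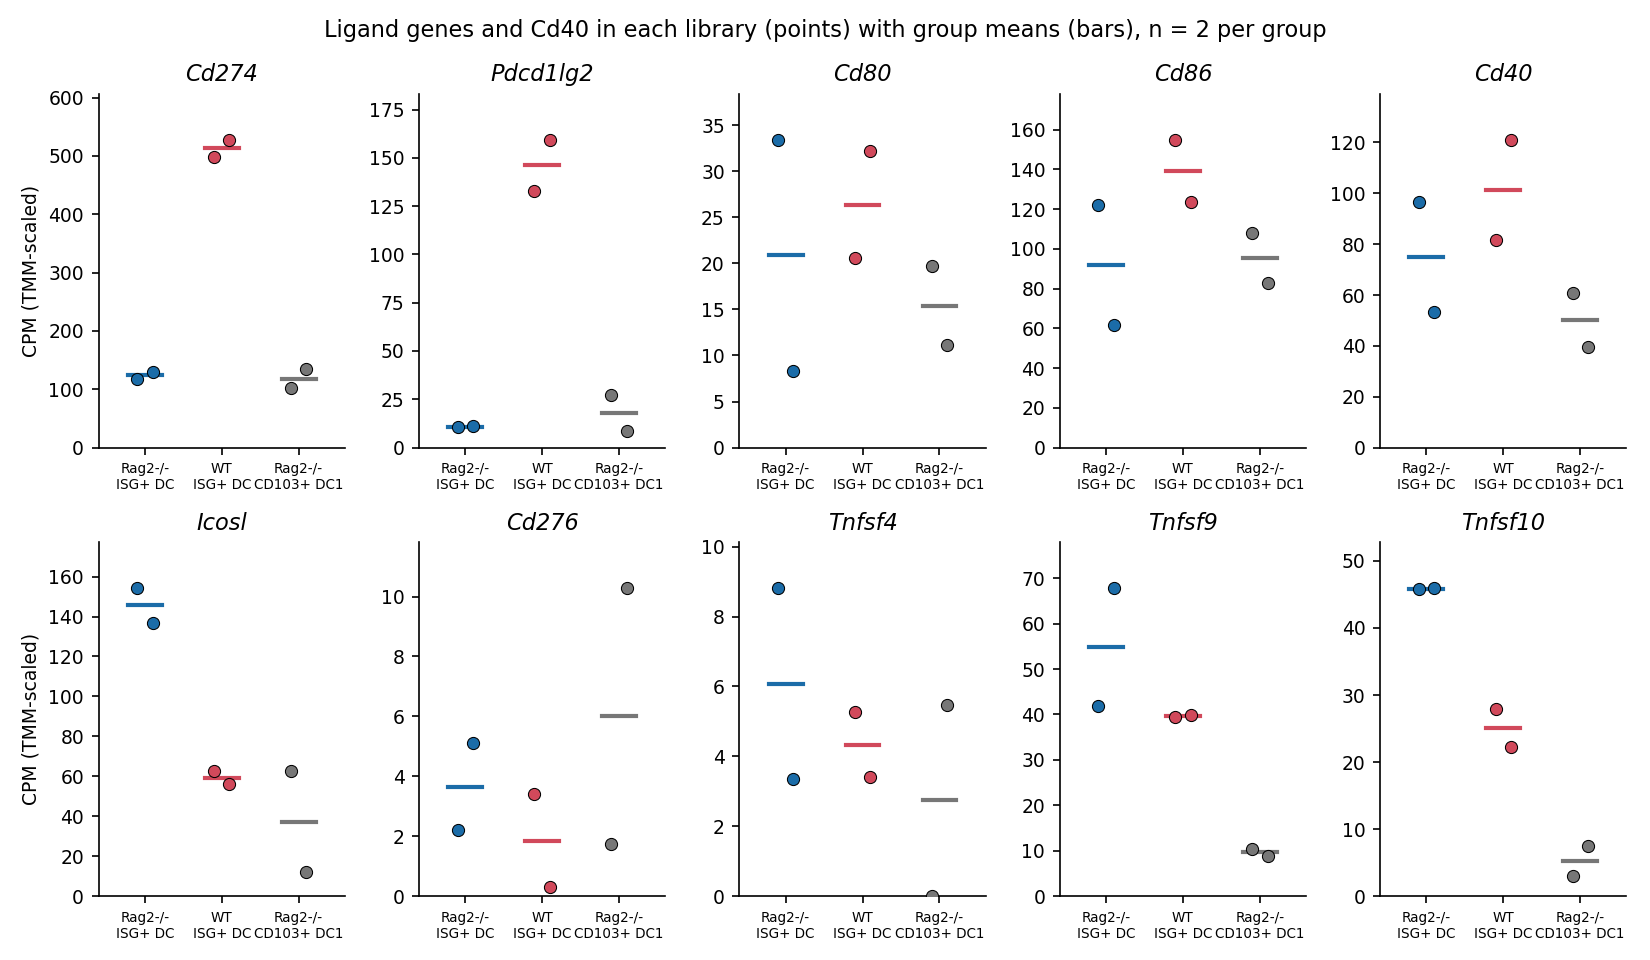
CPM of each gene (vertical axes, linear, each with its own scale) in the 6 libraries, by group; points are libraries and bars are group means of 2 libraries. Cd274 and Pdcd1lg2 stand apart in WT ISG+ DC, Icosl is highest in Rag2-/- ISG+ DC, and Tnfsf9 and Tnfsf10 are lowest in CD103+ DC1.

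PD-L1 transcripts set the ISG+ DC of the 2 hosts apart. Cd274 had 117.4 and 130.1 CPM in Rag2-/- ISG+ DC, 498.5 and 527.9 CPM in WT ISG+ DC, and 101.7 and 135 CPM in Rag2-/- CD103+ DC1. Both WT libraries lay far above the other 4, and the Rag2-/- ISG+ DC values fell inside the range of CD103+ DC1. Relative to WT, Cd274 fell by 2.05 ± 0.27 on the log2 scale (SE) in Rag2-/- ISG+ DC, a 4.15-fold lower level (edgeR adjusted p = 0.016). Within Rag2-/- hosts the difference between ISG+ DC and CD103+ DC1 was 0.07 on the log2 scale, with a 95% interval from -0.50 to 0.64 (edgeR adjusted p = 0.949). WT ISG+ DC were above CD103+ DC1 by 2.12 ± 0.27 (edgeR adjusted p = 0.000844).

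PD-L2 transcripts were also lower in Rag2-/- than in WT ISG+ DC. Pdcd1lg2 had 10.39 and 10.94 CPM in Rag2-/- ISG+ DC, 133 and 159.4 CPM in WT ISG+ DC, and 27.13 and 8.393 CPM in CD103+ DC1. The WT libraries again stood above the other 4, and the CD103+ DC1 libraries lay on either side of the Rag2-/- ISG+ DC. Relative to WT, Pdcd1lg2 fell by 3.78 ± 0.56 on the log2 scale in Rag2-/- ISG+ DC, a 13.7-fold lower level (edgeR adjusted p = 0.0196). WT ISG+ DC were above CD103+ DC1 by 3.02 ± 0.54 (edgeR adjusted p = 0.00591). Within Rag2-/- hosts the difference of -0.75 (95% interval -1.88 to 0.38) did not pass (edgeR adjusted p = 0.56). That value hung on single CD103+ DC1 libraries, at -1.33 and past the threshold without replicate 3 (edgeR adjusted p = 0.0347) and at 0.34 without replicate 2. For every 100 counts of Cd274 there were 8.85 and 8.41 counts of Pdcd1lg2 in Rag2-/- ISG+ DC, 26.7 and 30.2 counts in WT ISG+ DC, and 26.7 and 6.22 in CD103+ DC1. The ISG+ DC of the 2 hosts did not overlap in this ratio, and 2 libraries against 2 cannot reach an exact permutation p below 0.333.

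The call on both PD-1 ligands was lost without 1 library, with little change in size. Without Rag2-/- ISG+ DC replicate 2, Cd274 was at -1.98 (edgeR adjusted p = 0.0919) and Pdcd1lg2 at -3.74 (edgeR adjusted p = 0.0849), while 27 of all genes were called there, against 73 with all libraries. Over the 11 alternatives of this comparison Cd274 ran from -2.13 to -1.98 and passed in 10, and Pdcd1lg2 ran from -3.9 to -3.63 and passed in 10. A930007I19Rik, annotated on the opposite strand of Pdcd1lg2, had 19 and 0 counts in Rag2-/- ISG+ DC, 0 and 3 counts in WT ISG+ DC, and 0 and 0 counts in CD103+ DC1. Among all 13223 genes, Cd274 had the 11th smallest p and Pdcd1lg2 the 28th.

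Markers of macrophages and monocytes moved with host in the same libraries. The 16 markers summed to 3614 and 5608 CPM in Rag2-/- ISG+ DC and to 11010 and 11150 CPM in WT ISG+ DC, and none was at 0 in these 4 libraries. By edgeR, 1 of the 16 (Apoe) fell and 0 rose in Rag2-/- ISG+ DC, while 9 were lower by DESeq2 and 11 by limma-voom. Their median log2 fold change was -1.39, against 0.03 over all genes. Without overlap between the hosts, 13 of the 16 were lower and 2 higher in Rag2-/- ISG+ DC, against 21.4% and 23.1% of all genes. Of the 16, 12 had an unadjusted p under 0.05, against 9.88% of all genes. Neutrophil markers (6 found) summed to 38.71 and 33.83 CPM in Rag2-/- ISG+ DC and to 144.4 and 165.6 CPM in WT ISG+ DC. Of the 3 tested, Csf3r fell (edgeR adjusted p = 0.035), a call lost without either Rag2-/- ISG+ DC library. The hosts did not overlap in these 3 genes, with 2 lower and 1 higher in Rag2-/- ISG+ DC, where 44.5% of all genes did not overlap. T cell markers (9 found) summed to 29.4 and 11.01 CPM in Rag2-/- ISG+ DC, with 3 and 4 of them at 0, and to 47.72 and 44.02 CPM in WT ISG+ DC, with 0 and 2 at 0. B cell markers stayed at or under 12.69 CPM in every library. The part of these cell types in the fall of the PD-1 ligands was not tested, and in bulk samples fewer cells of a type and less RNA per cell cannot be told apart. Within Rag2-/- hosts the same markers summed to 3614 and 5608 CPM in ISG+ DC against 846.7 and 1036 CPM in CD103+ DC1.

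**Figure D2:**
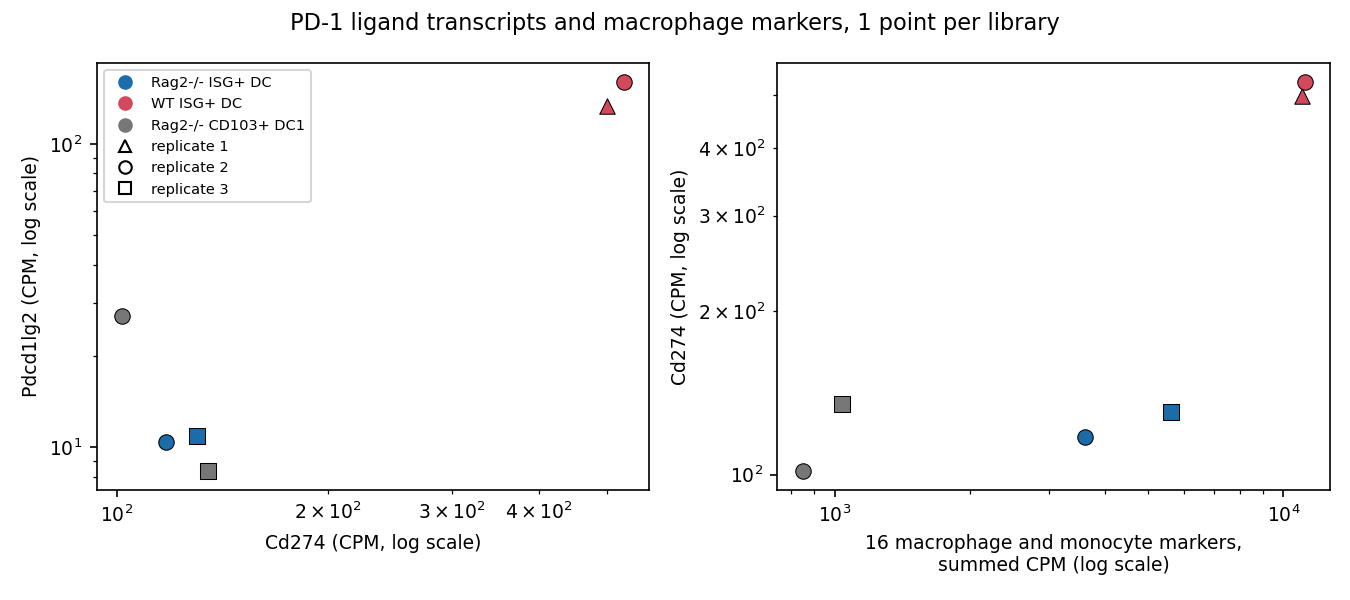
Left, Pdcd1lg2 against Cd274; right, Cd274 against the summed CPM of 16 macrophage and monocyte markers; all axes are log-scaled CPM, with 1 point per library. The 2 WT ISG+ DC libraries sit at the top right of both panels, and the 4 Rag2-/- libraries hold between 101.7 and 135 CPM of Cd274 at marker sums from 846.7 to 5608.

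CD80 and CD86, the ligands shared by CD28 and CTLA-4, did not pass in any comparison. Cd80 had 33.42 and 8.313 CPM in Rag2-/- ISG+ DC, 20.55 and 32.14 CPM in WT ISG+ DC, and 19.68 and 11.13 CPM in CD103+ DC1. The 2 Rag2-/- ISG+ DC libraries differed 4.02-fold and spanned the values of all other libraries. Cd80 in Rag2-/- over WT ISG+ DC was -0.34 on the log2 scale, with a 95% interval from -1.96 to 1.29 (edgeR adjusted p = 0.974). Cd86 had 121.9 and 61.91 CPM in Rag2-/- ISG+ DC, 155 and 123.5 CPM in WT ISG+ DC, and 108.1 and 82.9 CPM in CD103+ DC1. Both WT libraries were above the Rag2-/- ISG+ DC, by a narrow margin for the lower of them. The difference between hosts was -0.60 (95% interval -1.42 to 0.22, edgeR adjusted p = 0.685), so a fall of up to 1.42 and a rise of up to 0.22 lay within its error. Between populations in Rag2-/- hosts, Cd86 differed by -0.06 (95% interval -0.88 to 0.77).

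Counts of Cd86 and of Cd80 relative to those of Cd274 were lowest in WT ISG+ DC. For every 100 counts of Cd274 there were 104 and 47.6 counts of Cd86 in Rag2-/- ISG+ DC, 31.1 and 23.4 counts in WT ISG+ DC, and 106 and 61.4 in CD103+ DC1. The 2 WT libraries held the lowest of the 6 ratios. For Cd80 the same ratio was 28.5 and 6.39 in Rag2-/- ISG+ DC, 4.12 and 6.09 counts in WT ISG+ DC, and 19.4 and 8.25 in CD103+ DC1, and the WT libraries were again lowest, with 1 Rag2-/- ISG+ DC library close to them.

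Cd40, whose product on DC answers T cell help, was highest on average in WT ISG+ DC without passing. It had 96.43 and 53.45 CPM in Rag2-/- ISG+ DC, 81.5 and 121.1 CPM in WT ISG+ DC, and 60.78 and 39.57 CPM in CD103+ DC1. The ISG+ DC of the 2 hosts overlapped, as did ISG+ DC and CD103+ DC1 within Rag2-/- hosts, and only WT ISG+ DC and CD103+ DC1 were separate. For that pair the log2 difference was 1.01 (95% interval 0.09 to 1.93, edgeR adjusted p = 0.186), and it passed without CD103+ DC1 replicate 2, at 1.34 (edgeR adjusted p = 0.0366).

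ICOS ligand had its highest level in Rag2-/- ISG+ DC. Icosl had 154.2 and 136.9 CPM in Rag2-/- ISG+ DC, 62.47 and 56.29 CPM in WT ISG+ DC, and 62.5 and 12.16 CPM in CD103+ DC1. The Rag2-/- ISG+ DC libraries lay above all others, and the other 2 groups overlapped. The difference between hosts was 1.29 ± 0.59 on the log2 scale, a direction opposite to that of the PD-1 ligands, and did not pass (95% interval -0.004 to 2.59, edgeR adjusted p = 0.509). It passed with all genes kept, with the 4 ISG+ DC libraries fitted alone, and without either CD103+ DC1 replicate 2 or replicate 3, with edgeR adjusted p from 0.00301 to 0.0337. Over CD103+ DC1 the difference was 1.95 ± 0.60 (95% interval 0.63 to 3.27, edgeR adjusted p = 0.128). The 2 CD103+ DC1 libraries differed 5.14-fold, so this value was 3.57 without replicate 2 and 1.24 without replicate 3, both past the threshold (edgeR adjusted p = 7.64e-06 and 0.0342).

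B7-H3 (Cd276), an inhibitory B7 relative, was near the limit of detection. It had 2.203 and 5.104 CPM in Rag2-/- ISG+ DC, 3.396 and 0.2994 CPM in WT ISG+ DC, and 1.729 and 10.28 CPM in CD103+ DC1. These come from 35 and 70, 38 and 3, and 26 and 60 estimated counts in the same order. The 2 libraries of a group differed 2.32-fold, 11.3-fold and 5.94-fold, again in that order. The groups overlapped in every pair. The interval of the host difference ran from -2.90 to 4.86 on the log2 scale, so a difference was not detectable with 2 libraries a group. Markers of fibroblasts and fibrosarcoma summed to 1151 and 702.2 CPM in Rag2-/- ISG+ DC, 492.4 and 65.28 CPM in WT ISG+ DC, and 1173 and 490.1 CPM in CD103+ DC1. The library lowest in Cd276, WT ISG+ DC replicate 2, was also lowest in these markers. The 2 libraries highest in the markers, CD103+ DC1 replicate 2 and Rag2-/- ISG+ DC replicate 2, had 1.729 and 2.203 CPM of Cd276. CD103+ DC1 replicate 3, highest in Cd276, had a marker sum of 490.1 CPM. The part of these markers in the Cd276 values was not tested.

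**Figure D3:**
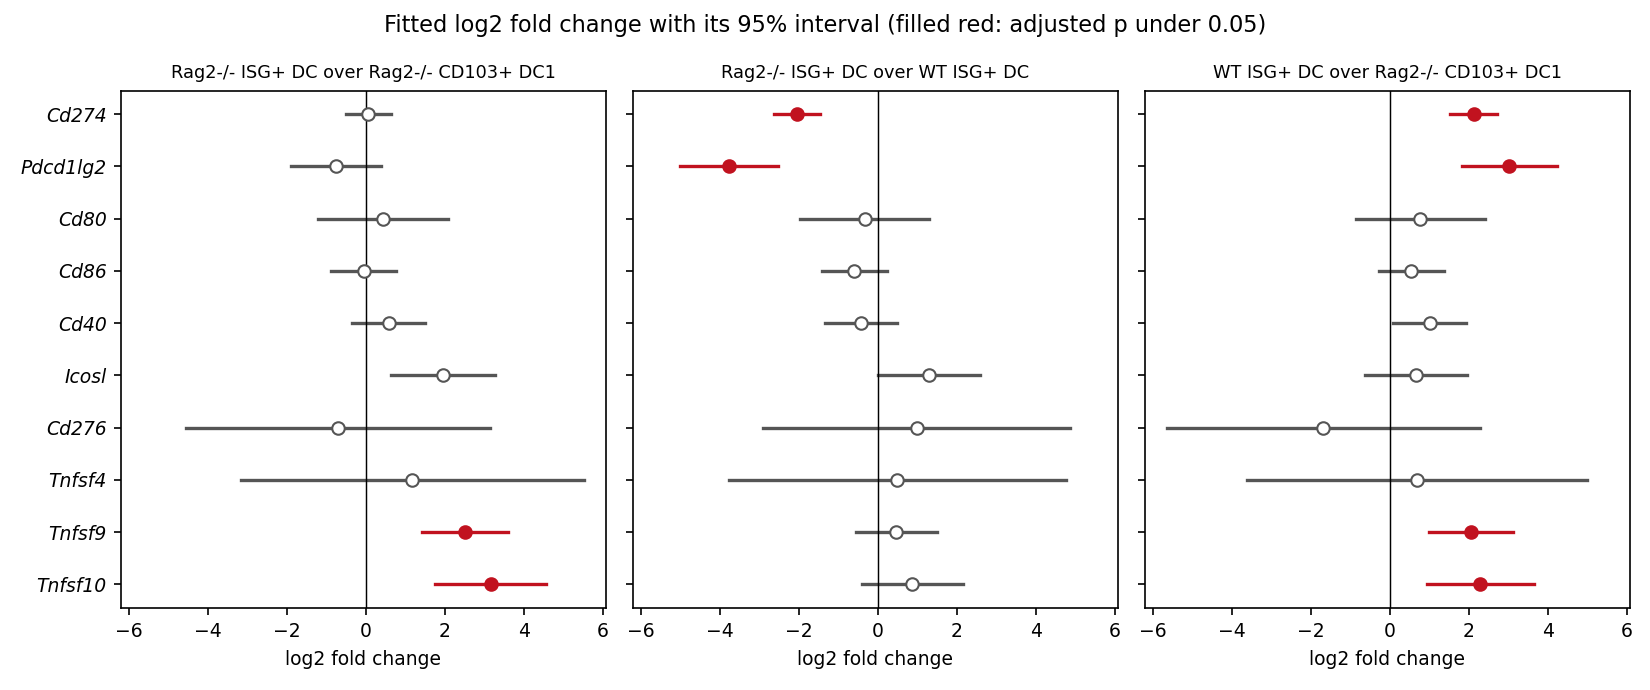
Fitted log2 fold change (horizontal axis) of each gene in the 3 comparisons, with its 95% interval; filled red points have an edgeR adjusted p under 0.05. The PD-1 ligands lie left of 0 between hosts, at -2.05 and -3.78, and Tnfsf9 and Tnfsf10 right of 0 between populations, at 2.51 and 3.16.

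TRAIL and 4-1BBL transcripts were higher in ISG+ DC of either host than in CD103+ DC1. Tnfsf10 (TRAIL) had 45.82 and 45.94 CPM in Rag2-/- ISG+ DC, 27.88 and 22.26 CPM in WT ISG+ DC, and 2.926 and 7.537 CPM in CD103+ DC1. All 3 groups were separate, with CD103+ DC1 lowest. Tnfsf10 rose by 3.16 ± 0.63 on the log2 scale in Rag2-/- ISG+ DC over CD103+ DC1, 8.93-fold (edgeR adjusted p = 0.02), and was higher in WT ISG+ DC by 2.29 ± 0.61 (edgeR adjusted p = 0.0437). Between hosts the difference of 0.87 (95% interval -0.41 to 2.15) did not pass (edgeR adjusted p = 0.706). The rise within Rag2-/- hosts missed the threshold without ISG+ DC replicate 2 (3.15, edgeR adjusted p = 0.0729) and without ISG+ DC replicate 3 (3.15, edgeR adjusted p = 0.0792), and passed in 11 of 13 alternatives.

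Tnfsf9 (4-1BBL) had 41.8 and 67.82 CPM in Rag2-/- ISG+ DC, 39.41 and 39.82 CPM in WT ISG+ DC, and 10.31 and 8.907 CPM in CD103+ DC1. The 4 ISG+ DC libraries lay above both CD103+ DC1 libraries, and the 2 hosts were separated only by a small gap. Tnfsf9 rose by 2.51 ± 0.49 on the log2 scale in Rag2-/- ISG+ DC over CD103+ DC1, 5.69-fold (edgeR adjusted p = 0.0167), and was 2.04 ± 0.48 higher in WT ISG+ DC (edgeR adjusted p = 0.0244). Between hosts the difference was 0.47 (95% interval -0.55 to 1.48). The rise within Rag2-/- hosts was lost without ISG+ DC replicate 3, at 2.12 (edgeR adjusted p = 0.214), and passed in 12 of 13 alternatives. Gm11110, a noncoding gene that overlaps Tnfsf9 on the opposite strand in GENCODE M21, had 16 and 180 counts in Rag2-/- ISG+ DC, 0 and 3 counts in WT ISG+ DC, and 14 and 0 in CD103+ DC1. The sources used here do not state whether counting used strand, and if it did not, reads from the stretch that both genes cover cannot be assigned to either. In WT ISG+ DC over CD103+ DC1, Tnfsf9 passed in 6 of 11 alternatives and Tnfsf10 in 4 of 11. Both lost the call without Rag2-/- ISG+ DC replicate 3, without WT ISG+ DC replicate 1 or 2, with limma-voom and with the 2 groups fitted alone, and Tnfsf10 also without Rag2-/- ISG+ DC replicate 2 or CD103+ DC1 replicate 2. Over all 11, Tnfsf9 ran from 1.96 to 2.14 (adjusted p from 0.000664 to 0.0916) and Tnfsf10 from 1.72 to 3.11 (adjusted p from 0.002 to 0.184).

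Macrophage and monocyte markers also separated these populations: 13 of 16 rose and 0 fell in Rag2-/- ISG+ DC over CD103+ DC1 by edgeR. DESeq2 called 13 higher and 0 lower, and limma-voom 11 and 0. Of the 16, 14 had an unadjusted p under 0.05, against 14.9% of all genes. Their sums are given above. Only Ly6c2 was at 0 in a library, CD103+ DC1 replicate 3. Of the other conventional DC lineage's markers 8 of 9 rose, and 9 of 10 DC1 markers fell. Summed NK cell markers were at 148 and 157.9 CPM in Rag2-/- ISG+ DC and at 82.58 and 94.52 CPM in WT ISG+ DC. In CD103+ DC1 they were at 114.6 and 93.18 CPM. Summed markers of plasmacytoid DC were at 256.1 and 204.6, 188.2 and 179.1, and 142.8 and 127.4 CPM in the same order, without overlap. By edgeR on all 6 libraries, 0 of the 3 NK cell and 5 plasmacytoid DC genes tested passed in any comparison. DESeq2 called 1 plasmacytoid DC gene higher in Rag2-/- ISG+ DC over CD103+ DC1. The part of such cells in the Tnfsf9 and Tnfsf10 results was not tested.

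OX40L (Tnfsf4) was low throughout. It had 8.812 and 3.354 CPM in Rag2-/- ISG+ DC, 5.273 and 3.394 CPM in WT ISG+ DC, and 0 and 5.481 CPM in CD103+ DC1. The groups overlapped in every pair. The log2 difference between ISG+ DC and CD103+ DC1 in Rag2-/- hosts had a 95% interval from -3.17 to 5.51, so none was detectable with 2 libraries a group.

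Over the 10 members, 3 had ISG+ DC of the 2 hosts apart with Rag2-/- higher (Icosl, Tnfsf9, Tnfsf10) and 3 with Rag2-/- lower (Cd274, Pdcd1lg2, Cd86), where 44.5% of all genes did not overlap, 23.1% higher and 21.4% lower. The median log2 difference of the 10 members between hosts was 0.07, against 0.03 over all genes. Between populations in Rag2-/- hosts, 3 members lay higher without overlap (Icosl, Tnfsf9, Tnfsf10) and 0 lower, where 45.9% of all genes did not overlap, 23.9% higher and 22% lower, and the median was 0.51 against -0.02. Between WT ISG+ DC and CD103+ DC1, 7 lay higher and 0 lower, where 51.4% of all genes did not overlap, 25.7% in each direction, and the median was 0.89 against -0.03.

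Divided by the length of the longest coding transcript in GENCODE M21, an annotation of another build than the counting, the levels of the members can be ordered within a library. Cd274 ranked 1 of 10 in both WT ISG+ DC libraries, at 138 and 146 CPM per kb, with Pdcd1lg2 next at 76.9 and 92.2 and then Cd86 at 61 and 48.6. In Rag2-/- ISG+ DC, Icosl (54.8 and 48.6 CPM per kb), Tnfsf9 (32.4 and 52.6) and Cd274 (32.4 and 35.9) shared the upper ranks with Cd86 (48 and 24.4), and Pdcd1lg2 stood at 6.01 and 6.33. In CD103+ DC1, Cd86 (42.6 and 32.7) and Cd274 (28.1 and 37.3) held ranks 1 and 2. Cd276 and Tnfsf4 were among the lowest ranks in all 3 groups. The summed CPM of the 10 members was 632.4 and 523.9 in Rag2-/- ISG+ DC, 1027 and 1086 CPM in WT ISG+ DC, and 394.8 and 321.3 in CD103+ DC1.

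Other genes of these pathways were taken from lists of ligands, receptors, CD40 and NF-kB signalling, and regulators of ligand expression. Among 17 other ligands tested, Vsir, which encodes the inhibitory B7 relative VISTA, was the 1 gene to pass in either comparison with CD103+ DC1. Vsir had 203 and 222 CPM in Rag2-/- ISG+ DC, 382 and 348 CPM in WT ISG+ DC, and 65.8 and 51.7 CPM in CD103+ DC1, so the groups did not overlap. It rose by 1.85 ± 0.27 on the log2 scale in Rag2-/- ISG+ DC over CD103+ DC1 (edgeR adjusted p = 0.00331), while its host difference of -0.78 ± 0.26 did not pass (edgeR adjusted p = 0.286). The list's median was 0.92 between populations, against -0.02 over all genes.

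Among 14 receptors tested, 2 fell and 0 rose in Rag2-/- ISG+ DC over CD103+ DC1, both of them known on DC as well as on T cells. Btla, the receptor of HVEM, had 19.1 and 15.2 CPM in Rag2-/- ISG+ DC, 0.536 and 3.19 CPM in WT ISG+ DC, and 319 and 196 CPM in CD103+ DC1. Its fall within Rag2-/- hosts was 3.91 ± 0.60 on the log2 scale (edgeR adjusted p = 0.00494), and its host difference of 3.21 ± 0.63 lay just outside the threshold (edgeR adjusted p = 0.0516). Havcr2, which encodes TIM-3, had 33.5 and 20.1 CPM in Rag2-/- ISG+ DC, 106 and 70.6 CPM in WT ISG+ DC, and 118 and 127 CPM in CD103+ DC1. It fell by 2.19 ± 0.39 within Rag2-/- hosts (edgeR adjusted p = 0.011), and its host difference of -1.72 ± 0.39 did not pass (edgeR adjusted p = 0.0849). Between hosts, DESeq2 called Btla higher and Havcr2 lower, and so did edgeR with no filter on low counts. In contrast, limma-voom called Havcr2 and Tnfrsf9 lower and did not call Btla. With RLE factors edgeR called neither Btla nor Havcr2, and with the 2 groups alone it called Havcr2 only. The fall of Havcr2 within Rag2-/- hosts was not called without Rag2-/- ISG+ DC replicate 3 or with ISG+ DC of both hosts pooled.

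Of 18 genes of CD40 and NF-kB signalling, Nfkbia, the inhibitor that NF-kB itself induces, rose in Rag2-/- ISG+ DC over CD103+ DC1 (1.17 ± 0.28 on the log2 scale, edgeR adjusted p = 0.0486). That call was kept in 6 of 13 alternatives, and lost with RLE factors, the 2 groups alone, the replicate block, and without Rag2-/- ISG+ DC replicate 2 or 3 or WT ISG+ DC replicate 1 or 2. In WT ISG+ DC over CD103+ DC1, Nfkbia (1.67 ± 0.28) and Tnfaip3 (2.26 ± 0.37), another feedback inhibitor, were higher and the kinase gene Chuk lower (-1.29 ± 0.33). The first 2 calls were kept in all 11 alternatives and that of Chuk in 5, being lost with the 2 groups alone and without any single library other than CD103+ DC1 replicate 2. Of 19 regulators of ligand expression, Irf1 (1.18 ± 0.27), an interferon-induced factor known to drive Cd274, and the interferon-gamma receptor chain Ifngr2 (1.45 ± 0.33) were higher in WT ISG+ DC over CD103+ DC1. Both calls were lost with the 2 groups fitted alone, without WT ISG+ DC replicate 1 and without WT ISG+ DC replicate 2, and kept in the other 8 of 11 alternatives. Irf1 had 151 and 145 CPM in Rag2-/- ISG+ DC, 341 and 320 CPM in WT ISG+ DC, and 168 and 125 CPM in CD103+ DC1; both WT libraries lay above the other 4. Its host difference of -1.16 ± 0.27 did not pass by edgeR (adjusted p = 0.0893) and passed by DESeq2 and limma-voom. Between hosts 0 of the 17 ligands, 14 receptors, 18 signalling genes and 19 regulators passed by edgeR. At an unadjusted p under 0.05 there were 3, 2, 4 and 1, against 9.88% of all genes. DESeq2 called 1, 2, 1 and 1 of them there, and limma-voom 0, 2, 1 and 1.

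Genes of the mature DC program, in which Cd80, Cd86, Cd40 and the PD-1 ligands are usually found, were counted in the same way. Of 14 tested, 0 passed between hosts by edgeR, by DESeq2 or by limma-voom, with a median of 0.24 against 0.03 over all genes. At an unadjusted p under 0.05 there were 4, against 9.88% of all genes. With no filter on low counts edgeR called 3 genes of the list higher in Rag2-/- ISG+ DC, and with the 2 groups alone 1. Ccr7, the receptor for migration to lymph nodes, had 84.2 and 90.1 CPM in Rag2-/- ISG+ DC, 69.4 and 101 CPM in WT ISG+ DC, and 200 and 73.5 CPM in CD103+ DC1, and all groups overlapped. In WT ISG+ DC over CD103+ DC1, Il12b (-3.53 ± 0.55) and Cacnb3 (-1.91 ± 0.51) were lower and 0 genes of the list were higher by edgeR, with 1 higher by DESeq2. The call on Cacnb3 was lost with the 2 groups alone, without WT ISG+ DC replicate 1 and without CD103+ DC1 replicate 2.

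**Figure D4:**
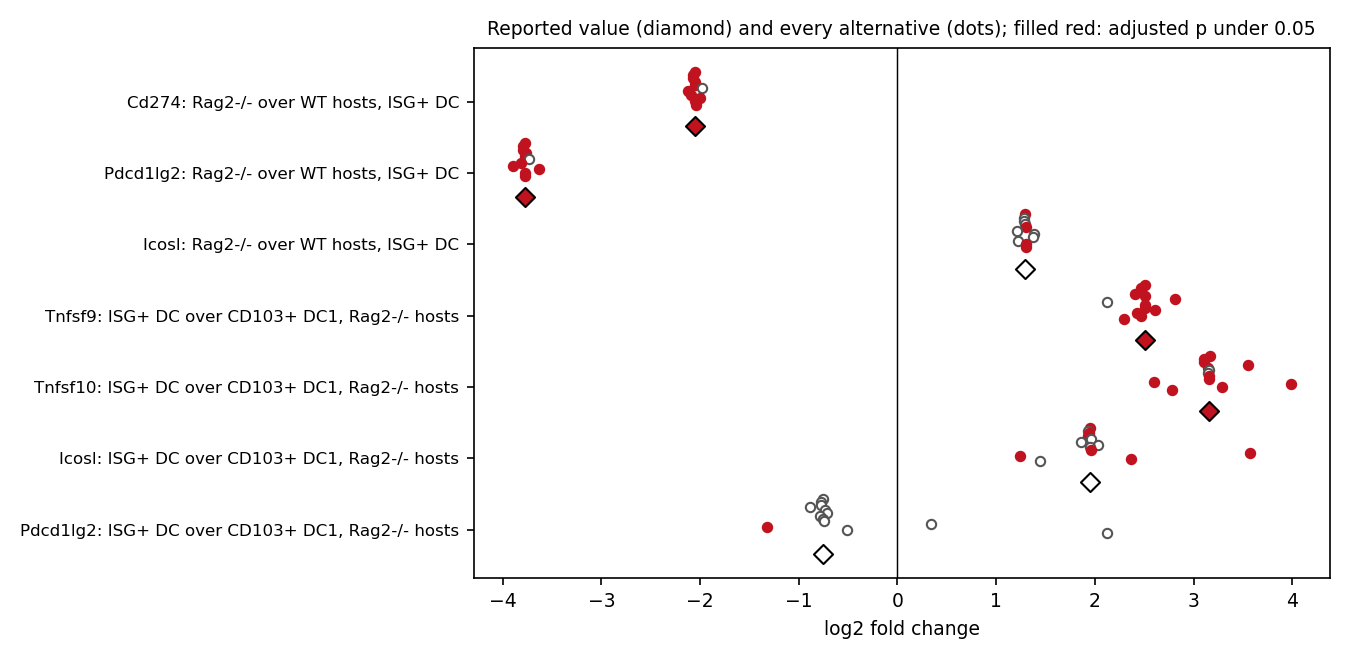
Log2 fold change (horizontal axis) of 7 gene and comparison pairs as reported (diamonds) and under each alternative (dots, 11 between hosts and 13 between populations); filled red symbols have an adjusted p under 0.05. The PD-1 ligands between hosts stay within -2.13 to -1.98 and -3.9 to -3.63, while Icosl between populations runs from 1.24 to 3.57.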

How the data were processed

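Bulk RNA of sorted DC was measured in 6 libraries. Per the submitters' processing notes the authors used Bowtie 1.2.3, RSEM 1.3.1 and the genome build mm9, and the authors deposited 1 table of unnormalized estimated counts, with a row for each gene symbol. The sources used here name no annotation, strand setting or read filter. Of the values, 16.1% are not whole and were rounded. In R 4.3.3, edgeR 4.0.16 (filterByExpr, TMM, glmQLFit over all 6 libraries) tested 13223 genes, two-sided, with Benjamini-Hochberg adjustment at 0.05. Standard errors came from the F statistic and 95% intervals from its degrees of freedom. CPM are counts over TMM-scaled totals. The p-values rest on the spread between 2 libraries a group, shared over the 3 groups (3 residual degrees of freedom). That spread is moderated by the spread of all genes (7.342 prior degrees of freedom). Alternatives were DESeq2 1.42.0, limma 3.58.1 (voom), RLE factors, no filter, 2 groups alone, each library left out, a replicate block and pooled hosts. The procedure was tested on simulated data. The planted changes were larger than those reported here for Cd274 and Tnfsf9, and for Tnfsf10 in WT ISG+ DC over CD103+ DC1. They were also larger than those of Vsir, Havcr2, Nfkbia, Tnfaip3, Chuk, Irf1, Ifngr2 and Cacnb3. That test therefore does not cover changes of these sizes. The members and the 14 other lists (177 entries, 175 found) were chosen with earlier results of these data known. Named genes were all members and, from 5 pathway lists, up to 4 passing genes per direction and comparison, plus defining markers; Apoe, Csf3r, Tnfrsf9, A930007I19Rik and Gm11110 were named after their values were seen. The symbol 1-Mar was read as March1.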

Additional observations from a re-analysis of the deposited data

How the results depend on the processing

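The 2 calls between hosts (Cd274, Pdcd1lg2) kept their direction in all 11 alternatives and those between populations in Rag2-/- hosts (Tnfsf9, Tnfsf10) in all 13. The fit with pooled hosts, counted among the 13, also holds WT ISG+ DC and so is not confined to Rag2-/- hosts. Leaving out 1 library each, 0 to 3 members were called between hosts, 0 to 4 between populations, and 2 to 5 in WT ISG+ DC over CD103+ DC1. Over all genes those counts ran from 27 to 801, from 278 to 2068 and from 837 to 2754. With all 6 libraries 73, 488 and 1209 genes were called in the same order; with no filter on low counts 555, 1087 and 1890, with DESeq2 572, 1109 and 2167, and with the 2 groups fitted alone 444, 297 and 683. limma-voom called 324 between hosts. In WT ISG+ DC over CD103+ DC1, limma-voom and the fit of 2 groups alone each called 2 members. All reversals were of members that had not passed, and their cause was not tested. Between populations, Cd276 was at 0.12 with limma-voom and 1.09 without CD103+ DC1 replicate 3, and Cd80 at -0.89 without ISG+ DC replicate 2. There Cd274 was at -0.0086 without ISG+ DC replicate 3 and -0.13 without CD103+ DC1 replicate 2, Cd86 at 0.35 and 0.14 without the same libraries, and Pdcd1lg2 at 0.34 without CD103+ DC1 replicate 2. With ISG+ DC of both hosts pooled, Pdcd1lg2 was at 2.13 and Cd86 at 0.27. Between hosts, Tnfsf4 was at -0.37 without Rag2-/- ISG+ DC replicate 2, and Cd80 at 0.35 without Rag2-/- ISG+ DC replicate 3 and 0.03 without WT ISG+ DC replicate 2. In WT ISG+ DC over CD103+ DC1, Tnfsf4 was at -0.35 without CD103+ DC1 replicate 2, and Icosl at -0.061 and Cd276 at 0.11 without CD103+ DC1 replicate 3. Over single libraries left out, the ranges of these members were, between populations, -0.13 to 0.30 for Cd274, -1.33 to 0.34 for Pdcd1lg2, -0.89 to 1.11 for Cd80, -0.63 to 0.35 for Cd86 and -1.50 to 1.09 for Cd276. Between hosts they were -1.66 to 0.35 for Cd80 and -0.37 to 1.02 for Tnfsf4, and in WT ISG+ DC over CD103+ DC1 -0.061 to 2.28 for Icosl, -4.27 to 0.11 for Cd276 and -0.35 to 8.84 for Tnfsf4, whose CD103+ DC1 replicate 2 is at 0. A replicate block, possible only within Rag2-/- hosts, called 3 members and 659 genes and brought Icosl to 2.37 (edgeR adjusted p = 0.000872). The log2 difference of replicate 2 from replicate 3 correlated at 0.0061 between the 2 populations over 13223 genes. This cannot tell whether same-numbered libraries came from the same experiment, since a shared experiment need not move both populations alike. With 2 libraries a group and counts under 100 for Cd276 and under 150 for Tnfsf4, differences of these genes were not detectable.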

Other observations

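Of the 10 members, 4 (Cd80, Cd86, Cd40 and Icosl) were higher in replicate 2 than in replicate 3 in both Rag2-/- groups, 3 (Cd274, Cd276 and Tnfsf10) were higher in replicate 3 in both, and 3 differed in direction between the groups. In Rag2-/- ISG+ DC, replicate 2 exceeded replicate 3 by 4.02-fold for Cd80, 1.97-fold for Cd86, 1.8-fold for Cd40 and 1.13-fold for Icosl. In CD103+ DC1, replicate 2 exceeded replicate 3 by 1.77-fold, 1.3-fold, 1.54-fold and 5.14-fold for the same genes. In WT ISG+ DC, Cd80 and Cd40 were higher in replicate 2 and Cd86 in replicate 1. These are values of single libraries with no test.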
